A study of Mus musculus with 11 samples.

Results

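The Slc25 genes encode the mitochondrial carrier family, and 37 of the 11366 genes of the deposited expression table belong to it. They were chosen by symbol alone, as every row whose name begins with Slc25a and a digit, and family members outside these rows were not analysed here. The data come from epithelial cells of the small intestine of wild-type mice in 3 groups. Control mice ate standard chow and had no colonization treatment (n = 3), NFF mice ate a low fermentable fiber diet, also without colonization treatment (n = 4), and SFB mice, on standard chow (n = 4), were colonized with SFB, taken to be the segmented filamentous bacteria of the gut. All 11 libraries were made from live cells sorted as EpCAM+, CD45-, CD31- and CD44-, so that the crypt base, where CD44 is high, was selected against in every group. The sources used here do not give strain, age or sex, nor whether each library is a separate animal, so the p-values reflect only library-to-library spread, which may be technical.

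Carriers of this family sit mainly in the inner mitochondrial membrane and exchange metabolites between the matrix and the cytosol. They pass ADP and ATP, phosphate, citrate and other organic acids, amino acids, acylcarnitines, nucleotides, vitamins and iron, and so link oxidative phosphorylation to the metabolism of the rest of the cell. In the absorptive epithelium of the small intestine they serve glutamine and ornithine use, fatty acid oxidation and heme synthesis. Not every member is mitochondrial in this sense, since Slc25a17 lies in peroxisomes and Slc25a46 in the outer mitochondrial membrane.

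Levels are in RPKM, reads adjusted for gene length and for library total, so genes can be compared with each other. Differences between groups are on the log2(RPKM + 1) scale, which shrinks differences of genes with levels around 1 RPKM or lower. A gene was called when limma, fitted to all 11 libraries and the 10482 genes with at least 1 RPKM in at least 3 libraries, gave a Benjamini-Hochberg adjusted p under 0.05. Of the members, 36 passed that filter, and Slc25a23, which reached 1 RPKM in 2 libraries, did not.

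Sums over all genes ranged from 237248 to 302661 RPKM per library, and depth is unknown because the values are not counts. Epcam ranged from 489 to 670 RPKM, and Cd44 from 0.333 to 2.29. Of 11 leukocyte markers 3 were in the table, with sums of 7.46 to 53.1 RPKM. Lyz2 made up 1.34 to 50.6 of these sums and Ptprc 0.247 to 2.48. The third, Itgam, stood at 1.786 to 5.19 RPKM in Control, 1.121 to 3.481 in NFF and 5.465 to 12.672 in SFB. In SFB against NFF, Itgam was called higher (limma adjusted p = 0.019), while the other 2 were below 0 and not called. None of 8 markers of endothelium and stroma was among the genes analysed. Summed markers of epithelial cell types and states differed between libraries, several of them along the groups. Dividing cell markers (11 of 11 in the table) summed to 43.3 to 136 RPKM in Control, 33.5 to 53.1 in NFF and 67.5 to 268 in SFB. Tuft cell markers (8 of 9) summed to 66.9 to 129, 104 to 181 and 9.36 to 45.7 RPKM. Paneth cell markers (6 of 6) summed to 10696 to 20944, 9123 to 14272 and 378 to 10690 RPKM. The sum of 378 was that of SFB 2, and SFB 1, SFB 3 and SFB 4 had 9244, 10690 and 5502. Paneth cell transcripts were thus abundant outside SFB 2, although the sort selected against the crypt base. Absorptive enterocyte markers (9 of 9) summed to 3549 to 8516, 5918 to 7220 and 1783 to 6860 RPKM, goblet cell markers (7 of 7) to 6641 to 10336, 5507 to 15029 and 3112 to 7558, and enteroendocrine markers (5 of 7) to 227 to 1332, 357 to 1193 and 123 to 299.9. In SFB against NFF, every tested marker of the absorptive (median log2 difference -0.66), goblet (-0.91), enteroendocrine (-1.46), Paneth (-1.72) and tuft (-2.16) lists was below 0, with 1 of 9, 0 of 7, 2 of 5, 1 of 6 and 8 of 8 called, and every dividing cell marker was above 0 (1.45), with 2 of 11 called. Proximal markers (7 of 8) summed to 2889 RPKM in Control 2 and to between 62.7 and 669 in the other libraries, and distal markers (7 of 9) to 977 in Control 2 and between 2727 and 7442 elsewhere. Over all genes, SFB 4 deviated most from its group mean (root mean square 0.434 in log2 units), ahead of SFB 2 (0.377) and Control 2 (0.349).

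Between SFB and NFF, 4 of the 36 tested members were called (11.1%), all with lower values in SFB, beside 7.34% of all genes tested (3.14% higher and 4.20% lower), a share near that of the members. They were the ADP/ATP carrier gene Slc25a4, the iron carrier gene Slc25a37, and Slc25a34 and Slc25a35, both of which encode carriers of unsettled substrate. In NFF against Control and in SFB against Control no member was called. Most of the family differed little between groups, including Slc25a5, which made up 41.1% of the summed RPKM of the members.

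The family's levels spanned a wide range within each library. Slc25a5 had the highest mean, 457 RPKM over the 11 libraries, followed by Slc25a24 (106), Slc25a3 (80.5), Slc25a10 (55.0), Slc25a11 (54.0), Slc25a20 (53.0), Slc25a1 (51.5), Slc25a15 (47.6) and Slc25a39 (35.1). These 9 genes held 84.5% of the summed RPKM of the members. A gap followed, since Slc25a39 exceeded the next gene, Slc25a22 (13.3), with no overlap of their libraries. The ranges of the libraries also did not overlap between Slc25a5 and Slc25a24 or between Slc25a3 and Slc25a10. Every other pair of neighbours in the order had overlapping ranges. Below the gap, 19 members had means of 3 to 15 RPKM and 9 had means under 3, down to 0.753 for Slc25a23. In 21 members the highest of the 11 libraries was less than 2 times the lowest, and in 10 it was more than 3 times the lowest.

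**Figure D1:**
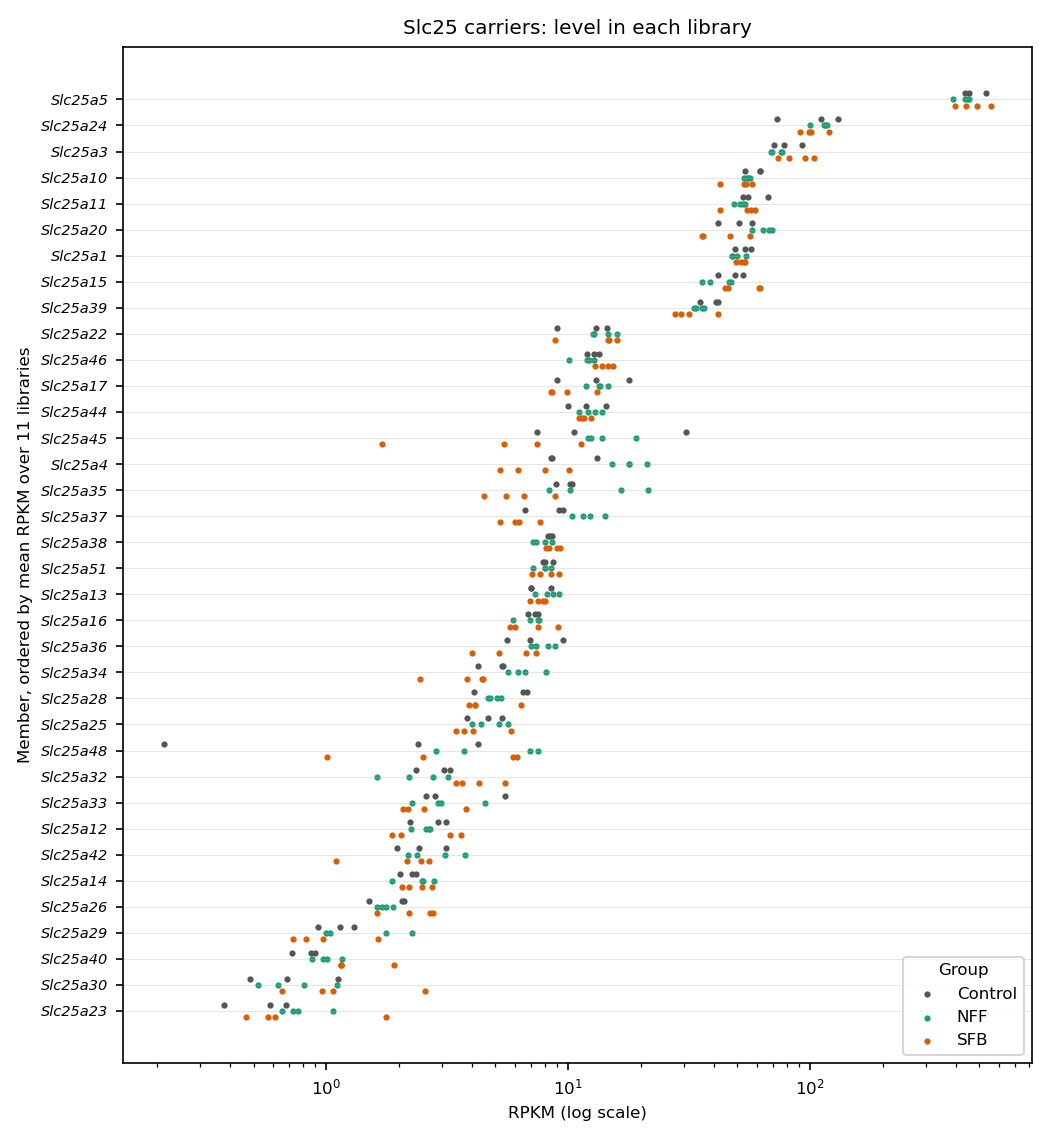
RPKM of the Slc25 members reported here on a log axis, 1 row per member ordered by its mean, with 1 point per library coloured by group. Slc25a5 lies between 391 and 557 RPKM in all 11 libraries, while Slc25a45 and Slc25a48 spread over the widest ranges.

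The adenine nucleotide and phosphate carriers supply ATP synthase with ADP and phosphate and export the ATP. Slc25a5, the widely expressed ADP/ATP carrier, stood at 530, 453 and 434 RPKM in Control 2, 4 and 5, at 451, 391, 452 and 435 in NFF 1 to 4, and at 488, 557, 439 and 398 in SFB 1 to 4. The 3 groups overlapped, with means of 473 ± 50.8 (SD, n = 3), 432 ± 28.8 (SD, n = 4) and 470 ± 68.5 (SD, n = 4). Slc25a4, the ADP/ATP carrier typical of heart and muscle, was far less abundant, at 8.54, 8.49 and 13.2 RPKM in Control 2, 4 and 5, at 17.8, 17.8, 15.2 and 21.2 in NFF 1 to 4, and at 7.99, 10.0, 6.17 and 5.24 in SFB 1 to 4. Every NFF library was above every library of the other 2 groups, while Control and SFB overlapped. The mean of Slc25a4 in NFF was 18.0 ± 2.47 RPKM (SD, n = 4), against 10.1 ± 2.68 for Control (SD, n = 3) and 7.36 ± 2.11 for SFB (SD, n = 4).

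Slc25a4 was lower in SFB than in NFF by a log2 difference of -1.21 ± 0.19 (SE; limma adjusted p = 0.0045), and the call held under each of the 22 alternatives run, with adjusted p from 0.0042 to 0.0209. Against Control its log2 difference was 0.80 ± 0.21 in NFF (SE; limma adjusted p = 0.618) and -0.41 ± 0.21 in SFB (SE; limma adjusted p = 0.462), neither called. These comparisons share libraries, so their values are not independent of each other. Tuft, enteroendocrine, dividing cell and proximal sums did not overlap between SFB and NFF, while Paneth, goblet, absorptive and distal sums did. The proximal sum was lower in SFB, but its markers were mixed, 4 of 7 above 0 and 3 below (median log2 difference 0.34). The part of all these markers in the Slc25a4 difference and the other differences between SFB and NFF was not tested. In bulk RNA, fewer cells of a type and less RNA per cell cannot be told apart.

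**Figure D2:**
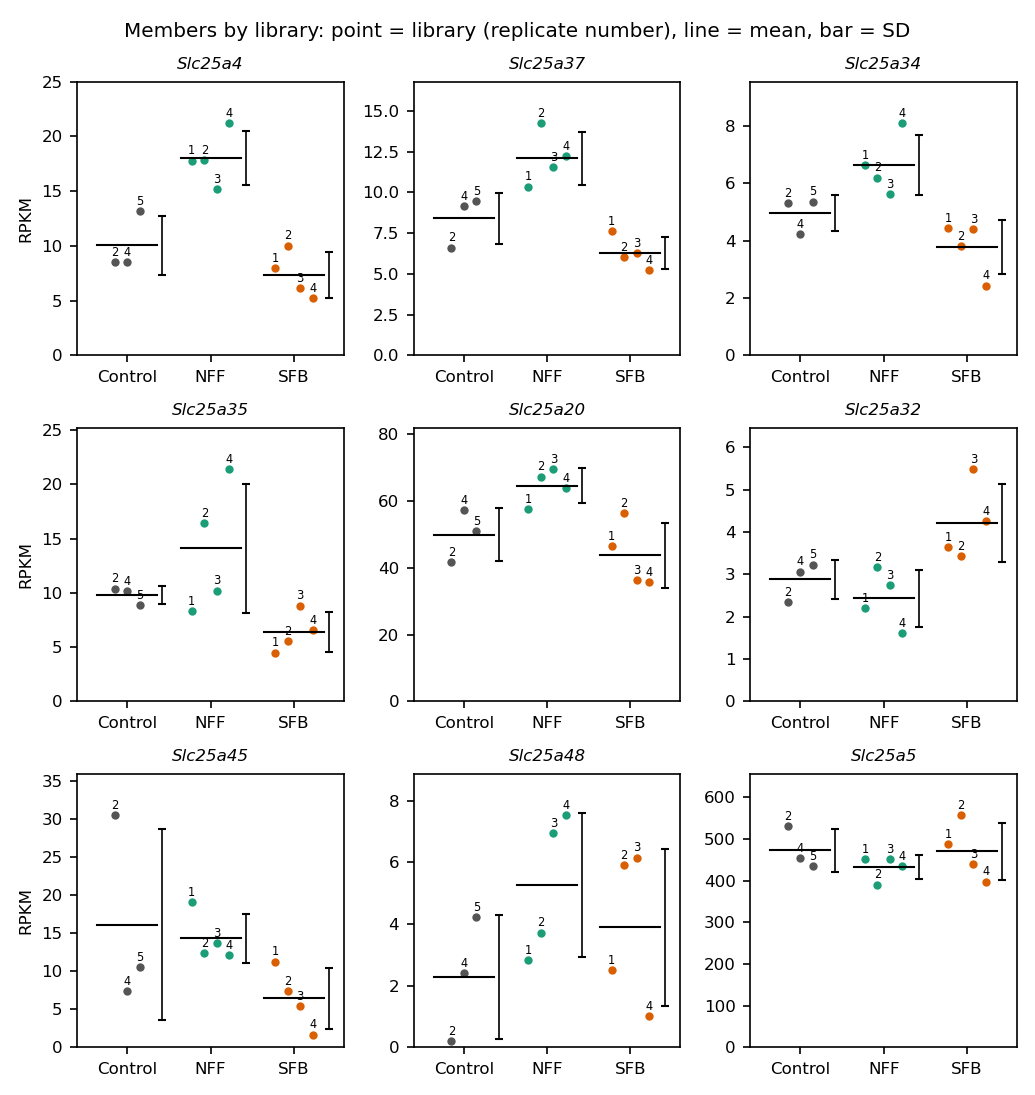
RPKM of 9 members in each library, with points numbered by replicate, a line at the group mean and a bar for the SD (n = 3 in Control, 4 in NFF and 4 in SFB). In Slc25a4, Slc25a37 and Slc25a34 the NFF libraries lie above all SFB libraries, whereas the Slc25a5 libraries overlap among groups.

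The stretches before the start sites of 4 members are printed because they set the member that differed most by adjusted p, Slc25a4, beside its near-constant paralog Slc25a5, and beside Slc25a20 and Slc25a34, whose levels followed the same order of group means as Slc25a4. They are from RefSeq on GRCm38.p6, 5′ to 3′ on the strand of the gene, and end at the base before the annotated gene. The positions are chr8:46211063-46211312 on the minus strand for Slc25a4, chrX:36795347-36795596 on the plus strand for Slc25a5, chr9:108661886-108662135 on the plus strand for Slc25a20 and chr4:141623892-141624084 on the minus strand for Slc25a34. Capitals mark matches on either strand to CCGGAAG, a motif of ETS factors, or to AGGTCA, the half-site of nuclear hormone receptors.
Slc25a4: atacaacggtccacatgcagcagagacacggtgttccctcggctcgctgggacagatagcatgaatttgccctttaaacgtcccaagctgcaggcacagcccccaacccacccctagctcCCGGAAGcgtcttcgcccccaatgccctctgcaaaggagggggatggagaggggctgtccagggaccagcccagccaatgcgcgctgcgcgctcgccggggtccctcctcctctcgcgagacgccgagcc
Slc25a5: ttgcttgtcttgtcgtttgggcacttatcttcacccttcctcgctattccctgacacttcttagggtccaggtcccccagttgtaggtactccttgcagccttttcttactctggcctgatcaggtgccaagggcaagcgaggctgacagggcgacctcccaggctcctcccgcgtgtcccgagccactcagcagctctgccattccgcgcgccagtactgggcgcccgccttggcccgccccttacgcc
Slc25a20: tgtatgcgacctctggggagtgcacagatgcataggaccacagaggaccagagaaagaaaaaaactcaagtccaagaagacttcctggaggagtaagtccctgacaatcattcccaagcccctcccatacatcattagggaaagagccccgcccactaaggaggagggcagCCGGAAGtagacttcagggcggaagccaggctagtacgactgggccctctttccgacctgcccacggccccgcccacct
Slc25a34: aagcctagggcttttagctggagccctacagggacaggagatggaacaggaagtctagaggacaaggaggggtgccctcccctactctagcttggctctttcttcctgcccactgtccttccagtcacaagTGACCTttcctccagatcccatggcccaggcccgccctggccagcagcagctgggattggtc

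Slc25a4 and Slc25a20 each held 1 CCGGAAG match in these stretches, Slc25a34 held 1 AGGTCA match, and Slc25a5 held neither. RefSeq windows from 250 bases before to 50 bases after a start were found for 29 of the 37 members, in 37 windows because some genes have several starts. CCGGAAG or its reverse complement was in 6 of these 37 windows (16.2%) and in 18.1% of the 11692 windows of genes in the expression table. AGGTCA was in 3 of 37 (8.11%) against 12.7%. The GC box GGGCGG, a motif of Sp factors common in promoters of widely expressed genes, was in 34 of 37 (91.9%) against 61.7%. None of the 3 motifs contains another, and a match describes the letters of the window only. Slc25a37 and Slc25a35 had no entry.

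Slc25a3, the phosphate carrier, stood at 92.4, 78.1 and 70.8 RPKM in Control 2, 4 and 5, at 76.3, 69.6, 75.6 and 68.8 in NFF 1 to 4, and at 94.8, 104, 81.6 and 73.8 in SFB 1 to 4, with overlap among all groups. The calcium-regulated carriers that exchange ATP-Mg for phosphate differed widely in level. Slc25a24 ranged from 73.0 to 130 RPKM and Slc25a25 from 3.44 to 5.81. Slc25a23, of the same branch, was the least abundant member. It stood at 0.586, 0.683 and 0.379 RPKM in Control 2, 4 and 5, at 0.730, 1.06, 0.653 and 0.767 in NFF 1 to 4, and at 0.466, 0.615, 1.76 and 0.573 in SFB 1 to 4, so that only SFB 3 and NFF 2 exceeded 1 RPKM.

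Carriers of citrate and other organic acids move carbon and reducing equivalents between the matrix and the cytosol. Slc25a1, the citrate carrier that supplies cytosolic acetyl groups for lipid synthesis, stood at 53.9, 57.0 and 48.9 RPKM in Control 2, 4 and 5, at 47.3, 47.4, 49.8 and 54.2 in NFF 1 to 4, and at 53.3, 53.8, 49.1 and 51.9 in SFB 1 to 4. It was the steadiest member relative to its level, with the highest library at 1.20 times the lowest. Slc25a10, the dicarboxylate carrier, stood at 61.9, 62.2 and 53.9 RPKM in Control 2, 4 and 5, at 53.1, 55.5, 56.5 and 54.9 in NFF 1 to 4, and at 53.3, 57.7, 42.2 and 54.2 in SFB 1 to 4. Slc25a11, which exchanges oxoglutarate for malate, stood at 66.7, 55.3 and 52.5 RPKM in Control 2, 4 and 5, at 53.0, 51.0, 53.7 and 48.6 in NFF 1 to 4, and at 54.9, 58.9, 42.5 and 57.0 in SFB 1 to 4. In both genes the groups overlapped, and SFB 3 was the lowest of the 11 libraries.

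The other members of this role group, Slc25a34 and Slc25a35, are less abundant and encode carriers whose substrates are not settled. Slc25a34 stood at 5.30, 4.23 and 5.36 RPKM in Control 2, 4 and 5, at 6.64, 6.19, 5.63 and 8.09 in NFF 1 to 4, and at 4.43, 3.81, 4.40 and 2.43 in SFB 1 to 4. All NFF libraries were above all SFB and all Control libraries. Slc25a34 was lower in SFB than in NFF by -0.69 ± 0.16 on the log2 scale (SE; limma adjusted p = 0.028). That call was lost without NFF 1 (adjusted p = 0.059), NFF 2 (0.073) or NFF 4 (0.086), with the replicate number as a block (0.087), and without Control 2, SFB 2 and SFB 4 together (-0.49, limma adjusted p = 0.072).

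Slc25a35 stood at 10.4, 10.1 and 8.90 RPKM in Control 2, 4 and 5, at 8.34, 16.4, 10.2 and 21.4 in NFF 1 to 4, and at 4.50, 5.55, 8.83 and 6.58 in SFB 1 to 4. NFF 2 and NFF 4 were the highest libraries, NFF 1 lay below SFB 3, and all SFB libraries were below all Control libraries. Goblet cell marker sums in NFF 1 to 4 were 5507, 11068, 6746 and 15029 RPKM, the same order as Slc25a35 in these libraries. They were 6316, 5643, 7558 and 3112 in SFB 1 to 4, and 10336, 6641 and 10003 in Control 2, 4 and 5. In neither of these groups was the order that of Slc25a35. The part of goblet cell markers in the Slc25a35 values was not tested. The difference of SFB from NFF was -0.98 ± 0.26 (SE; limma adjusted p = 0.041), and its call was lost with any 1 of 7 libraries left out, namely Control 5, NFF 2, NFF 3, NFF 4, SFB 1, SFB 2 or SFB 4, at adjusted p of 0.054 to 0.126 (limma). It was also lost with the replicate number as a block (0.057), with only the groups compared in the fit (0.057), and without Control 2, SFB 2 and SFB 4 together (0.113). In GENCODE M21, 1151 of its 3677 exonic bases are shared with Rangrf on the opposite strand, so reads of the 2 genes could not be told apart by these unstranded libraries, and Rangrf was not analysed here.

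Iron carriers bring iron to the matrix for heme and iron-sulfur clusters, and 2 further members carry glutathione. Slc25a37, mitoferrin-1, stood at 6.61, 9.14 and 9.48 RPKM in Control 2, 4 and 5, at 10.4, 14.2, 11.5 and 12.2 in NFF 1 to 4, and at 7.61, 6.02, 6.28 and 5.22 in SFB 1 to 4. NFF was above both other groups in every library, and SFB overlapped with Control through Control 2. Slc25a37 was lower in SFB than in NFF by -0.85 ± 0.14 (SE; limma adjusted p = 0.0064), a call that held under each of the 22 alternatives run (adjusted p from 0.0035 to 0.0432). Against Control the log2 difference was 0.48 ± 0.16 in NFF (SE; limma adjusted p = 0.785) and -0.36 ± 0.16 in SFB (SE; limma adjusted p = 0.381). GENCODE M21 places 2 noncoding genes on the opposite strand over 381 and 92 of its 6021 exonic bases.

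Slc25a28, mitoferrin-2, did not follow Slc25a37. It stood at 6.51, 6.75 and 4.08 RPKM in Control 2, 4 and 5, at 5.29, 4.75, 4.68 and 5.07 in NFF 1 to 4, and at 4.10, 4.12, 3.88 and 6.39 in SFB 1 to 4, and its groups overlapped. Slc25a39, a glutathione carrier of the inner membrane, stood at 41.5, 40.9 and 35.1 RPKM in Control 2, 4 and 5, at 33.0, 33.8, 36.3 and 35.9 in NFF 1 to 4, and at 31.4, 29.3, 27.7 and 41.5 in SFB 1 to 4. Its paralog Slc25a40 stood at 0.722, 0.862 and 0.894 RPKM in Control 2, 4 and 5, at 0.969, 1.00, 0.869 and 1.16 in NFF 1 to 4, and at 1.15, 1.15, 1.90 and 1.15 in SFB 1 to 4. All SFB libraries of Slc25a40 were above all Control libraries, but the log2 difference, 0.35 ± 0.14, missed the threshold (SE; limma adjusted p = 0.339).

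Carriers of amino acids and acylcarnitines include the urea cycle, aspartate and fatty acid steps. Slc25a20, which brings acylcarnitines into the matrix for fatty acid oxidation, stood at 41.6, 57.2 and 50.9 RPKM in Control 2, 4 and 5, at 57.6, 67.3, 69.4 and 63.8 in NFF 1 to 4, and at 46.5, 56.3, 36.2 and 35.7 in SFB 1 to 4. Every NFF library was above every library of the other groups. The difference of SFB from NFF, -0.57 ± 0.16, missed the threshold (SE; limma adjusted p = 0.052), and it lay on either side of it among the 22 alternatives. It was called under 6 of them, namely the stricter filter (adjusted p = 0.049), quantile normalization (0.038), robust eBayes (0.0498), and without Control 2 (0.040), without SFB 2 (-0.70, 0.022) or without Control 2, SFB 2 and SFB 4 together (-0.64, 0.026), and its highest adjusted p, 0.139, came with the replicate number as a block. Against Control the NFF difference was 0.37 ± 0.17 (SE; limma adjusted p = 0.896).

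Slc25a15, the ornithine and citrulline carrier, stood at 53.0, 41.4 and 48.8 RPKM in Control 2, 4 and 5, at 47.2, 38.5, 46.2 and 35.6 in NFF 1 to 4, and at 62.0, 61.7, 45.5 and 44.2 in SFB 1 to 4. SFB 1 and SFB 2 were the highest libraries, while SFB 3 and SFB 4 lay among those of the other groups. The glutamate carrier gene Slc25a22 stood at 13.1, 8.97 and 14.4 RPKM in Control 2, 4 and 5, at 15.8, 12.7, 14.7 and 12.8 in NFF 1 to 4, and at 14.8, 15.8, 14.7 and 8.83 in SFB 1 to 4. Control 4 and SFB 4 had its lowest values. These 2 libraries had the highest sums of dividing cell markers, 136 and 268 RPKM, and the lowest of absorptive enterocyte markers, 3549 and 1783. SFB 3, with the next highest dividing cell sum (96.7), stood at 14.7 RPKM of Slc25a22. The part of these markers in the Slc25a22 values was not tested.

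The aspartate-glutamate carriers work in the malate-aspartate shuttle, which brings reducing equivalents into the matrix. Slc25a13, citrin, stood at 6.99, 6.999 and 8.49 RPKM in Control 2, 4 and 5, at 8.17, 9.14, 7.29 and 8.62 in NFF 1 to 4, and at 8.003, 7.50, 6.94 and 7.85 in SFB 1 to 4. Slc25a12, aralar, stood at 2.88, 3.12 and 2.23 RPKM in Control 2, 4 and 5, at 2.69, 2.24, 2.65 and 2.58 in NFF 1 to 4, and at 2.04, 1.87, 3.25 and 3.59 in SFB 1 to 4. Slc25a13 was thus the more abundant paralog in all 11 libraries, and neither gene separated the groups. The remaining amino acid members, Slc25a44 for branched-chain amino acids, Slc25a38 for glycine and Slc25a29 for basic amino acids, ranged from 9.98 to 14.3, from 7.18 to 9.26 and from 0.725 to 2.26 RPKM.

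Slc25a45 and Slc25a48 varied most between libraries. Slc25a45 stood at 30.5, 7.42 and 10.5 RPKM in Control 2, 4 and 5, at 19.1, 12.4, 13.7 and 12.1 in NFF 1 to 4, and at 11.3, 7.41, 5.42 and 1.70 in SFB 1 to 4. Its highest library was Control 2, which had the highest proximal marker sum, and its lowest was SFB 4, which had the lowest (2889 and 62.7 RPKM). Fabp1 made up 2665 RPKM of the sum in Control 2. Fabp1, Lct, Cyp2b10, Gata4 and Onecut2 were highest in Control 2, but Slc40a1 was at its lowest there (2.37 RPKM). Cubn (2.45) was lower only in SFB 4. SFB 4 also had the lowest absorptive and the highest dividing cell sum (1783 and 268 RPKM). Slc25a48, reported to carry choline, stood at 0.214, 2.40 and 4.22 RPKM in Control 2, 4 and 5, at 2.83, 3.72, 6.95 and 7.53 in NFF 1 to 4, and at 2.51, 5.90, 6.15 and 1.00 in SFB 1 to 4. Its lowest libraries, Control 2 and SFB 4, were those with the lowest distal marker sums (977 and 2727 RPKM). The part of position along the gut or of cell types in these values was not tested. Slc25a45 differed by -1.16 ± 0.50 between SFB and Control (SE; limma adjusted p = 0.382), or -0.60 without Control 2. Without Control 2, SFB 2 and SFB 4 together, that difference was -0.15. Between SFB and NFF, Slc25a45 differed by -1.22 ± 0.46 (SE; limma adjusted p = 0.127). Slc25a48 differed by 1.09 ± 0.54 between NFF and Control (SE; limma adjusted p = 0.896), or 0.49 without Control 2. None of these differences was called.

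Carriers of nucleotides, coenzymes and vitamins were mostly of moderate or low level. Slc25a32, which carries folate and the flavin coenzyme FAD, stood at 2.35, 3.07 and 3.23 RPKM in Control 2, 4 and 5, at 2.20, 3.17, 2.76 and 1.62 in NFF 1 to 4, and at 3.65, 3.44, 5.48 and 4.26 in SFB 1 to 4. Every SFB library was above every other library, in contrast to the genes that were lower in SFB. The log2 difference of SFB from Control was 0.41 ± 0.18 (SE; limma adjusted p = 0.398) and that of SFB from NFF 0.61 ± 0.17 (SE; limma adjusted p = 0.052), neither called. The pyrimidine nucleotide carrier gene Slc25a36 stood at 9.52, 5.59 and 6.92 RPKM in Control 2, 4 and 5, at 7.04, 8.78, 8.24 and 7.33 in NFF 1 to 4, and at 7.35, 5.17, 6.70 and 4.01 in SFB 1 to 4. Slc25a51, the carrier of NAD, stood at 7.82, 8.62 and 8.01 RPKM in Control 2, 4 and 5, at 8.47, 7.13, 8.01 and 7.99 in NFF 1 to 4, and at 8.47, 9.12, 7.61 and 7.11 in SFB 1 to 4. Both overlapped among the groups, and Slc25a51 was among the steadiest members, its highest library being 1.28 times its lowest.

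Further nucleotide and coenzyme members ranged over the 11 libraries from 8.51 to 17.9 RPKM for the peroxisomal Slc25a17, from 5.76 to 9.10 for Slc25a16, from 2.06 to 5.495 for the pyrimidine nucleotide carrier gene Slc25a33, from 1.10 to 3.75 for Slc25a42, which carries coenzyme A, and from 1.503 to 2.76 for Slc25a26, which carries S-adenosylmethionine. None was called in any comparison. Slc25a46, an outer membrane member that takes part in mitochondrial dynamics, averaged 14.1 ± 1.01 RPKM in SFB (SD, n = 4), against 12.7 ± 0.762 for Control (SD, n = 3) and 11.7 ± 1.14 for NFF (SD, n = 4). All its SFB libraries were above all NFF libraries, and the difference was not called (0.25, limma adjusted p = 0.151). The uncoupling protein relatives Slc25a14 and Slc25a30 ranged from 1.88 to 2.78 and from 0.484 to 2.56 RPKM.

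NFF and Control differ, by their labels, in diet. Slc25a4 and Slc25a37 had the lowest unadjusted p there, with higher values in NFF, followed by Slc25a20, Slc25a48 and Slc25a34, also higher. Limma with Benjamini-Hochberg adjustment called 0 of 36 members and 0 of all 10482 genes (0.00%), the smallest adjusted p of a member being 0.618, while 2 members, both higher, had an unadjusted p under 0.05 against 4.82% of all genes (2.87% higher and 1.95% lower). Libraries did not overlap in 4 members, all higher in NFF (Slc25a4, Slc25a37, Slc25a20 and Slc25a34), which is 11.1% against 9.77% of all genes (5.35% higher and 4.42% lower). The median log2 difference of the members was 0.046, with 20 above 0 and 16 below, and that of all genes was -0.0085, with 48.3% above 0 and 51.7% below. The 95% interval lay inside -1 to 1 for 32 of the 36 members. The members' median was -0.00071 without Control 2, -0.0097 without Control 4 and -0.028 with the replicate number as a block.

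SFB and Control differ, by their labels, in colonization on the same chow. The members of lowest unadjusted p were Slc25a40 and Slc25a32, with higher values in SFB, and Slc25a37, Slc25a45 and Slc25a35, with lower values. Limma with Benjamini-Hochberg adjustment called 0 of 36 members against 21 of all genes (0.200%, with 0.124% higher and 0.0763% lower), with a smallest adjusted p of 0.339 among members, and 4 members had an unadjusted p under 0.05 against 12.1% of all genes (5.47% higher and 6.60% lower). Libraries did not overlap in 3 members, Slc25a40 and Slc25a32 higher and Slc25a35 lower, 8.33% against 9.71% of all genes (3.66% higher and 6.05% lower). The median of the members was -0.037, with 14 above 0 and 22 below, and that of all genes 0.012, with 52.5% above 0 and 47.5% below, and 33 of the 36 intervals lay inside -1 to 1.

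The comparison of SFB with NFF differs in both diet and colonization. Limma with Benjamini-Hochberg adjustment called 4 of 36 members, 0 higher and 4 lower, as given above. An unadjusted p under 0.05 was found for 9 members, 2 higher and 7 lower, against 25.7% of all genes (12.5% higher and 13.2% lower). Libraries did not overlap in 7 members (19.4%), against 20.0% of all genes (10.1% higher and 9.91% lower). These were Slc25a4, Slc25a37, Slc25a34, Slc25a20 and Slc25a45, lower in SFB, and Slc25a32 and Slc25a46, higher. The median of the members was -0.090, with 15 above 0 and 21 below, and that of all genes was 0.020, with 52.7% above 0 and 47.3% below. The count of members called was 2 without NFF 2 or without NFF 4, where Slc25a4 and Slc25a37 remained, and it was 3 without Control 2, SFB 2 and SFB 4 together, where Slc25a4, Slc25a37 and Slc25a20 were called.

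**Figure D3:**
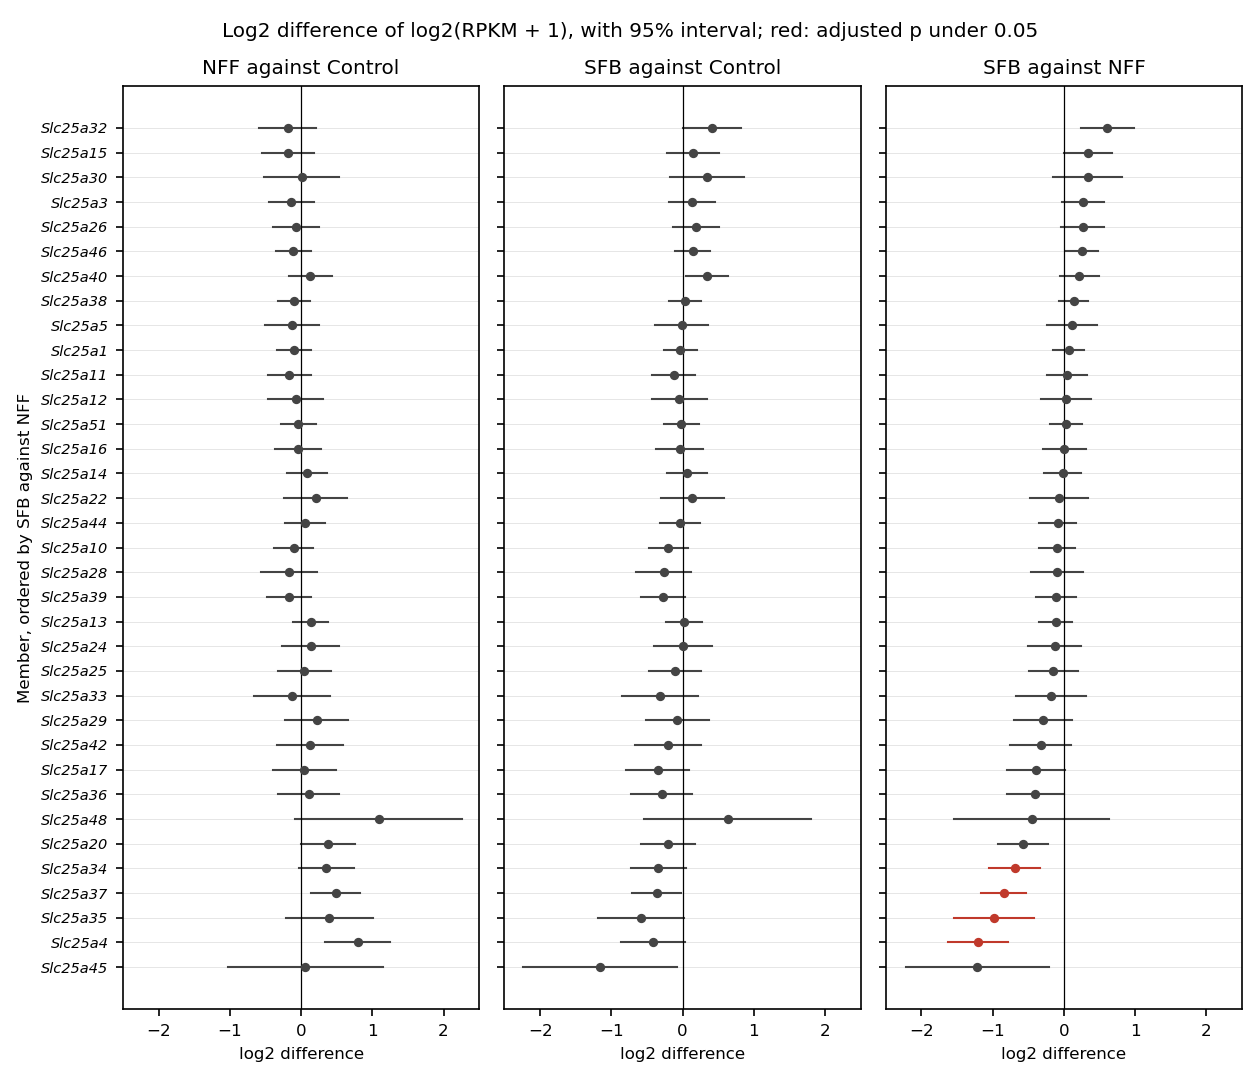
Log2 difference of each tested member reported here with its 95% interval in the 3 comparisons, members in the same order in each panel, called members in red. The 4 called members are Slc25a34, Slc25a37, Slc25a35 and Slc25a4 in SFB against NFF, and most other intervals cross 0.

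Balance between close relatives was read as a ratio of RPKM within each library, as a description with no test. Slc25a5 exceeded Slc25a4 by 62.1, 53.4 and 33.0 times in Control 2, 4 and 5, by 25.4, 21.9, 29.8 and 20.5 times in NFF 1 to 4, and by 61.1, 55.5, 71.1 and 75.8 times in SFB 1 to 4. All NFF ratios were below all others, although Slc25a4 remained the minor ADP/ATP carrier in every library. The ratio of Slc25a37 to Slc25a28, the 2 mitoferrins, ranged from 1.01 to 2.32 in Control, from 1.96 to 3.00 in NFF and from 0.818 to 1.86 in SFB, so NFF lay above SFB and overlapped with Control. The ratio of Slc25a39 to Slc25a40 ranged from 39.3 to 57.5 in Control, from 31.0 to 41.7 in NFF and from 14.5 to 35.9 in SFB. Ratios of Slc25a13 to Slc25a12 (2.13 to 4.09), Slc25a36 to Slc25a33 (1.62 to 3.12) and Slc25a24 to Slc25a25 (17.3 to 34.6) overlapped among all groups.

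**Figure D4:**
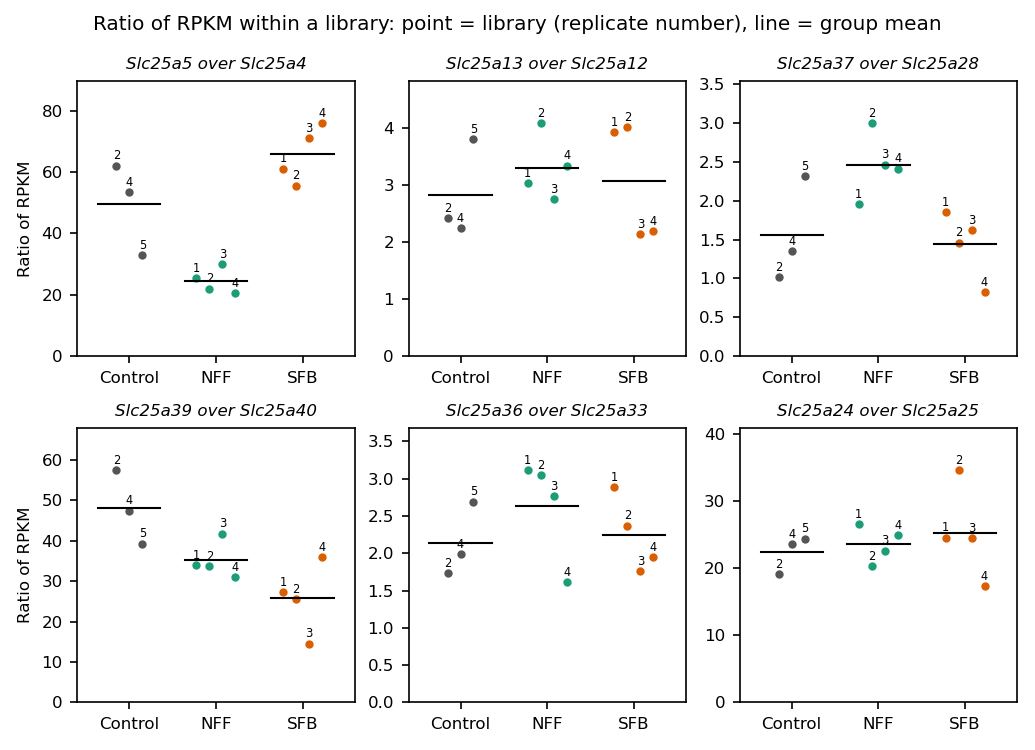
Ratio of RPKM between 2 related members in each library, with points numbered by replicate and a line at the group mean. The ratio of Slc25a5 to Slc25a4 is 20.5 to 29.8 in NFF and at least 33.0 in each Control and SFB library.

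Genes that work beside the carriers gave the following counts, to be read beside the 3.14% of all genes called higher and 4.20% called lower in SFB against NFF and their median of 0.020. Calls of single genes of these lists in that comparison were not followed under the alternatives. Of 13 tested genes of the carnitine shuttle and fatty acid oxidation, 3 were called lower in SFB than in NFF and 0 higher, with a median of -0.31 and 12 of 13 below 0, and Slc25a20 serves the same route. Acaa2, the thiolase of the last step of beta oxidation, stood at 177, 127 and 116 RPKM in Control 2, 4 and 5, at 117, 173, 135 and 150 in NFF 1 to 4, and at 60.2, 55.6, 50.6 and 75.3 in SFB 1 to 4. All SFB libraries of Acaa2 were below all others, with differences of -1.24 from NFF (limma adjusted p = 0.0029) and -1.19 from Control (0.034), both called, although with the replicate number as a block no gene of the table was called in SFB against Control.

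Of 14 regulators of mitochondrial biogenesis, 1 was called lower and 1 higher in SFB than in NFF, with a median of 0.13. The lower one was Ppara, a nuclear receptor that activates fatty acid oxidation genes, Slc25a20 among its known targets, at -0.60 (limma adjusted p = 0.013). The higher one was its family's coactivator gene Ppargc1b, at 0.84 (limma adjusted p = 0.041). Ppargc1b stood at 14.9 RPKM in SFB 4 and at 6.87 to 8.84 in the other SFB libraries. It stood at 3.115 to 5.936 in NFF and at 7.48 to 9.605 in Control. Any link between these regulators and Slc25a20 or the fatty acid oxidation genes was not tested in these data. Of 13 enzymes of the malate-aspartate and citrate shuttles, 9 were above 0 in SFB against NFF, with a median of 0.21, and 1 was called higher, the aspartate aminotransferase gene Got1, at 0.73 (limma adjusted p = 0.046). Of 11 folate and thiamine genes 8 were above 0, with a median of 0.092, and 1 was called higher, Aldh1l1, which oxidises formyl folate, at 0.44 (limma adjusted p = 0.037).

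Of 30 subunits and carriers of electrons in oxidative phosphorylation, 25 were above 0 in SFB against NFF, with a median of 0.195, and 1 was called higher, cytochrome c, Cycs, at 0.61 (limma adjusted p = 0.036). No gene was called in that comparison among 13 import genes of the TOM70 and TIM22 route, which inserts the carriers into the inner membrane. None was called among 16 heme and iron-sulfur genes or among 15 other transport genes such as Ucp2 and Vdac2. An unadjusted p under 0.05 was found for 3 of 13, 3 of 16 and 2 of 15, each a smaller share than the 25.7% of all genes. In NFF against Control limma called no gene of the lists given here, and in SFB against Control only Acaa2. All 30 oxidative phosphorylation genes were below 0 in NFF against Control, with a median of -0.23, as were all 13 import genes (-0.19), beside 0.046 for the 36 carriers, whose sign did not hold under the alternatives given above, and -0.0085 for all genes. Oxidative phosphorylation genes summed to 5564, 4879 and 4218 RPKM in Control 2, 4 and 5 and to 3909 to 4451 in NFF. Control 5 thus lay within the NFF range. Dividing cell marker sums were 43.3, 136 and 68.4 RPKM in Control 2, 4 and 5 and 33.5 to 53.1 in NFF, with Control 2 within the NFF range. The part of dividing cell markers in these differences from Control was not tested.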

How the data were processed

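A single table of RPKM values, named so per the file headers, was deposited by the authors for 11366 genes in 11 libraries. Per the labels' protocols, RNA of sorted cells was made into cDNA with the SMART-seq v4 kit and into libraries with NexteraXT, neither of which marks strand or adds molecular identifiers. Per the submitters' processing notes, STAR and mm10 were used. How reads were counted, over which annotation, and how genes were kept is not given in the sources used here. Among genes between 0.03 and 0.4 RPKM, no ratio of 2 libraries, to 2 significant digits, was shared by more than 16.0% of genes in the 41 pairs with at least 100 such genes, so reads were not recovered and depth is unknown.

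RPKM is not a count. Values were analysed as log2(RPKM + 1) with limma 3.58.1 in R 4.3.3, with 1 mean per group, eBayes with a mean trend, 8 residual degrees of freedom and Benjamini-Hochberg adjustment over the 10482 genes tested, 884 being left out. The script was tested on simulated data. Positions and promoters are from RefSeq GRCm38.p6, the assembly of mm10, in which all 37 members were found, and exon overlaps are from GENCODE M21.

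The members, lists and tests were chosen with earlier results of these data known. Values in every library are given for called members, the 5 of lowest unadjusted p in each comparison, the most and least abundant, and a fixed set of 17 carriers of known role. A few items, 1 member among them, are not reported here. From each list of partner genes up to 2 called genes are named, or in a list with none called the 1 of lowest p may be. As alternatives the pseudocount was set to 0.5 or 2, the filter dropped or raised, values rescaled by median ratios or quantile normalized, eBayes run robustly or without its trend, the fit limited to the pair of groups, replicate number added as a block, each library left out, and Control 2, SFB 2 and SFB 4 left out together.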

Additional observations from a re-analysis of the deposited data

Results flagged for a closer look

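In groups of 4 libraries, the gap between the extreme library and its nearest neighbour was compared with the group's range for all 37 members in NFF and SFB, 74 groups in all, of which chance flags about 1 in 20. The gap exceeded Dixon's critical share in 4 groups, all of them SFB. Slc25a28, mitoferrin-2, stood at 6.39 RPKM in SFB 4 against 3.88 to 4.12 in the other SFB libraries. Slc25a22, a glutamate carrier, stood at 8.83 RPKM in SFB 4 against 14.7 to 15.8. Slc25a40, a glutathione carrier, stood at 1.90 RPKM in SFB 3 against 1.15 in each of the others. Slc25a23, an ATP-Mg carrier, stood at 1.76 RPKM in SFB 3 against 0.466 to 0.615.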

How the results depend on the processing

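Under 11 alternatives and with each of the 11 libraries left out in turn, no Slc25 member was called in NFF against Control or in SFB against Control. In SFB against NFF the members called numbered 2 with the replicate block and 2 to 6 with a library left out, against 4, and all were lower in SFB except Slc25a32, called as higher under some alternatives. The genes called over the whole table in NFF against Control numbered 1 with only the groups compared, 22 without Control 2, SFB 2 and SFB 4, and 0 to 8 with a library left out, against 0. In SFB against Control they numbered 1 with only the groups compared, 0 with the replicate block, 95 without those 3 libraries and 7 to 94 with a library left out, against 21. In SFB against NFF they numbered 1187 with quantile normalization, 335 with the replicate block and 240 to 994 with a library left out, against 769. The members' median in NFF against Control was -0.028 with the replicate block, -0.00071 without the 3 libraries and -0.0097 to 0.058 with a library left out, against 0.046. The other medians moved by less than the spread between libraries, 0.038. The cause of these changes was not tested. The labels do not say that replicate numbers pair libraries. Deviations from group means of libraries with the same number correlated at -0.173 and -0.277 between NFF and Control and at 0.201 and 0.668 between SFB and Control. Between SFB and NFF they correlated at -0.301 to 0.028. Libraries of unlike number were not compared, so these values cannot decide whether the numbers are pairs. The main fit did not take the numbers as pairs. Depth is unknown, and members near 1 RPKM are the least certain.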
